A study of Rattus norvegicus with 10 samples.

Results

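Transcripts of the nuclear-encoded subunits of respiratory complexes II, III and IV and of ATP synthase (complex V) were compared between hearts of aged and adult rats. The list held 47 subunit genes, and 42 of them were measured by at least 1 probe set that the platform annotation assigns to that gene alone, out of 14217 named genes in all. Complex II had 4 of 4 genes measured, complex III 8 of 9, complex IV 15 of 16 and ATP synthase 15 of 18. Uqcrb, Cox7a2, Atp5mc1, Atp5mc2 and Atp5mj were not analysed here. The aged group was 5 hearts of male Fischer-344 rats at 24 months, and the adult group was 5 hearts of male Fischer-344 rats at 6 months. All rats were of this 1 inbred strain, were fed standard chow and carried no other treatment. The sample labels name the whole heart and the series text names the ventricles. Total RNA was hybridised to a 1-colour Affymetrix rat genome array after 2 cycles of cDNA synthesis, and each array is a separate labelled sample. Separate animals are not stated outright for the arrays, and the p-values cover the spread among the arrays alone.

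Complex II, succinate dehydrogenase, passes electrons from succinate to ubiquinone and is both a respiratory complex and an enzyme of the tricarboxylic acid cycle. Complex III passes electrons from ubiquinol to cytochrome c, and complex IV, cytochrome c oxidase, passes them on to oxygen. Complexes III and IV pump protons, and ATP synthase uses the resulting gradient to turn its rotor and make ATP. The heart depends on this machinery for most of its ATP. Some core subunits of complexes III, IV and V are encoded in mitochondrial DNA, and those studied here are encoded in the nucleus.

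The deposited values are log values centred on the median of each probe set over the 10 arrays. They were used as log2 values, a base that the labels do not state and that was inferred from the smallest increments in the table. They show differences between arrays and give no absolute level, so 1 gene cannot be set against another by level. Because of the centring, the middle values of a gene with 1 probe set mirror each other around 0. A gene is described as fallen where its adjusted p (limma, Benjamini-Hochberg over all 14217 genes) was under 0.05. Differences are log2, aged minus adult, with the standard error (SE) of the fit.

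Upstream sequence of 5 subunit genes is shown because it holds matches to motifs of factors known for respiratory genes. The first 4 genes fell in aged hearts and Atp5me did not pass the test. Each line gives the 160 bases before the annotated transcription start, 5′ to 3′ on the gene's strand, from RefSeq on build GRCr8, with motif matches in capitals.
Sdha, chr1:30764393-30764552, plus strand: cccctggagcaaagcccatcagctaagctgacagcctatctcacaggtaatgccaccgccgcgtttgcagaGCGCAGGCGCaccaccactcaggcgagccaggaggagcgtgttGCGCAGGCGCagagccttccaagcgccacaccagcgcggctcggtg
Uqcrc1, chr8:118468063-118468222, plus strand: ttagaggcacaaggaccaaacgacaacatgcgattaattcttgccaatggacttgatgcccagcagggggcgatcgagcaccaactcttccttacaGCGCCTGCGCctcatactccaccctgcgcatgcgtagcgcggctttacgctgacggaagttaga
Uqcrc2, chr1:184599080-184599239, plus strand: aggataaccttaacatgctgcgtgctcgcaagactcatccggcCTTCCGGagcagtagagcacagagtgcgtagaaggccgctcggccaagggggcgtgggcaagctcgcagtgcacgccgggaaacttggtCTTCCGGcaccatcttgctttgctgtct
Atp5f1a, chr18:73567377-73567536, plus strand: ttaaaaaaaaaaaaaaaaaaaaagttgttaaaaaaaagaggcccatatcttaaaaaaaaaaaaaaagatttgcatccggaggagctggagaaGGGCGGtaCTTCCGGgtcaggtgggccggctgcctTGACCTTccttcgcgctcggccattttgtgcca
Atp5me, chr14:1464700-1464859, plus strand: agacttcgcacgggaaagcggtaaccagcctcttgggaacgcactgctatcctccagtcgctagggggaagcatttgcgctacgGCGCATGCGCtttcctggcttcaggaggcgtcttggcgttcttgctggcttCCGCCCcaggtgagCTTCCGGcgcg
Motifs were searched on both strands of the 250 bases upstream of the start: GCGCA, any base, then GCGC (nuclear respiratory factor 1, NRF-1), CCGGAAG (ETS factors such as GABP), AAGGTCA (estrogen-related receptors, ERR, and other nuclear receptors), AAGATGGC (YY1) and GGGCGG (Sp1). Promoters were found for 36 of the 42 measured genes, and matches of different motifs overlapped in 0 of them. The GABP letters were in 12 of the 36 (33.3%), against 7.74% of all 27457 promoters and 12.9% of the promoters of measured genes. The NRF-1 letters were in 4 of 36 (11.1%), namely Sdha, Uqcrc1, Atp5po and Atp5me, against 4.17% of all promoters and 7.65% of those of measured genes. Those of ERR were in 5 (13.9%, against 3.77% and 2.76%), those of YY1 in 2 (5.56%, against 1.69% and 1.90%) and those of Sp1 in 13 (36.1%, against 32.4% and 54.2%). Of the 10 genes that fell, 8 had a promoter in the table, and 2 of these held the GABP letters, 2 those of NRF-1, 3 those of Sp1 and 1 those of ERR. Of the 28 other subunit promoters, 10 held the GABP letters, 2 those of NRF-1, 10 those of Sp1 and 4 those of ERR. These matches are a description of the letters in the window.

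Of the 42 subunit genes, 10 fell in aged hearts and 0 rose. At an unadjusted limma p under 0.05 there were 15 lower and 0 higher, against 12.0% and 14.3% of all genes. Over all genes, 5.09% fell and 6.77% rose, and 11.7% of the 2758 genes with a probe set in the brightest class fell. Of the 42 subunit genes, 40 had a probe set in this class. Of the 2758 genes, 1124 had an unadjusted limma p under 0.05, and 497 of these were higher in aged hearts. The brightness class was inferred from the numerical step and is approximate. A lower mean in aged hearts was found in 31 subunit genes (73.8%), against 51.8% of all genes and 53.9% of the 2758 in the brightest class. The median difference of the 42 genes was -0.08 (-5.45%), and that of all genes was -0.0050. The 10 genes that fell were Sdha, Cyc1, Uqcrc1, Uqcrc2, Cox5a, Atp5f1a, Atp5f1b, Atp5f1c, Atp5f1d and Atp5pd, with differences from -0.18 to -0.42. In 11 of the 42 genes every aged array lay below every adult array, namely the 10 that fell and Sdhc. So it did in 4.78% of all genes and in 272 of the 2758 in the brightest class. In 0 of the 42 did every aged array lie above every adult array, which 5.13% of all genes and 218 of the 2758 showed. Single arrays moved the count of 10. It was 5 without adult replicate 3, 6 without adult replicate 4, 6 without aged replicate 5 and 13 without aged replicate 2. In the same order, the count of all genes lower in aged hearts was 430, 597, 406 and 940, against 724 with all arrays. Without aged replicates 3 and 6 together, 3 genes fell: Cyc1, Cox5a and Atp5f1d. The other 7 kept lower means, with differences from -0.23 (Sdha) to -0.14 (Atp5f1c), and the count of all genes lower in aged hearts was 356 without these 2 arrays, against 724 with them. The median difference of the 42 genes was then -0.05.

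**Figure D1:**
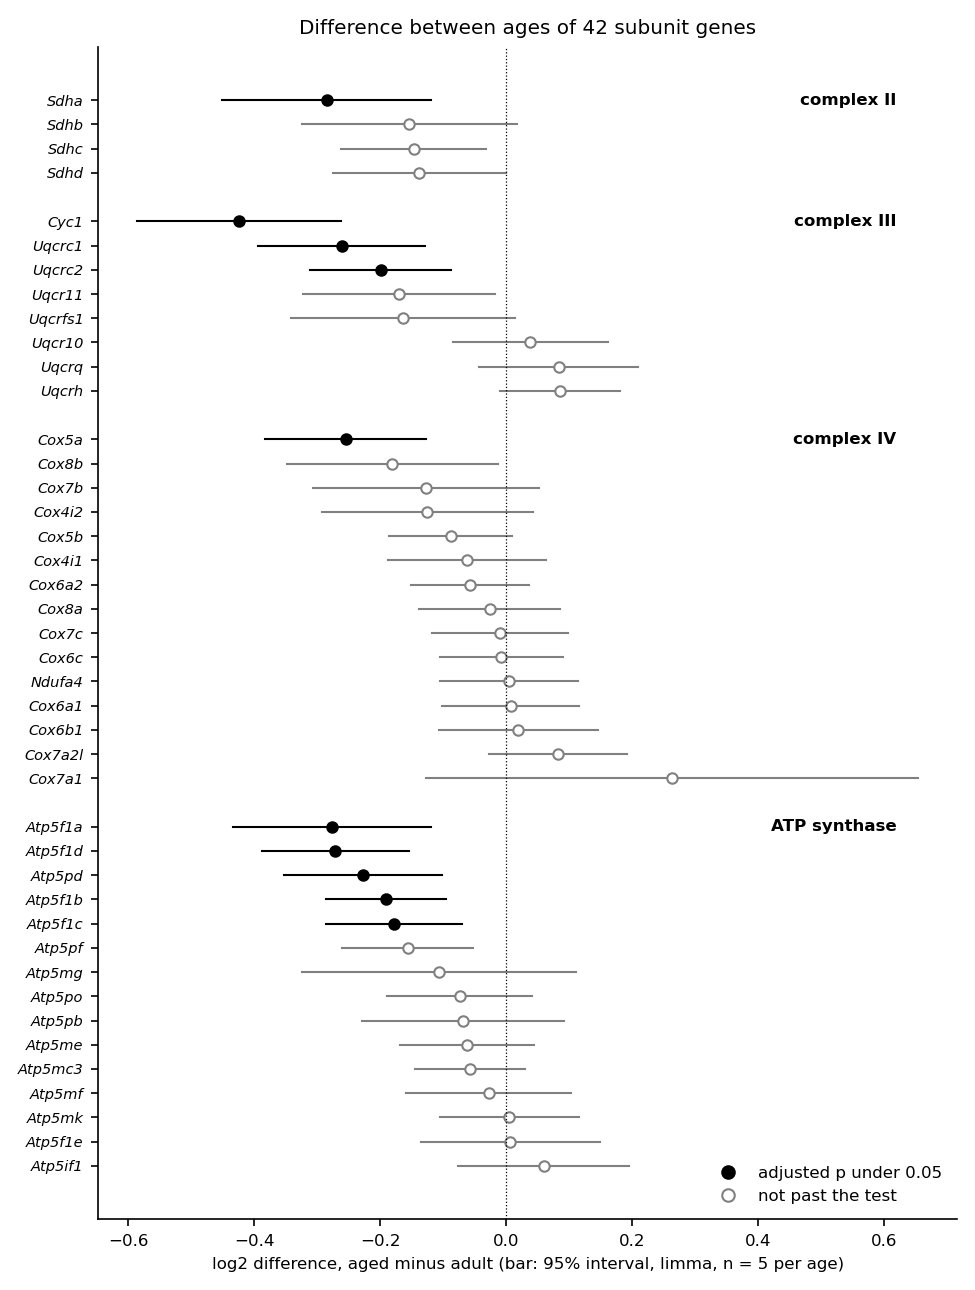
The horizontal axis gives the log2 difference, aged minus adult, of each of 42 subunit genes, listed by complex from the lowest difference to the highest, with bars for the 95% interval of the limma fit (n = 5 per age). Filled points are the 10 genes with an adjusted p under 0.05, all of which lie left of 0, and Cox7a1 has the widest interval (-0.13 to 0.65).

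The arrays were close in their overall level, with medians over all probe sets between -0.0097 and 0.0093. All 11 measured cardiomyocyte marker genes were in the brightest class. Of them 3 fell (Myh6, Ryr2 and Atp2a2) and Myh7 rose, and their mean ranged from -0.24 to 0.06 in aged and from -0.01 to 0.29 in adult arrays. Lower means in aged hearts were found in 10 of these 11 markers, with a median difference of -0.13 (-8.43%). An unadjusted limma p under 0.05 was found in 7 of them, 1 of which was higher in aged hearts. Of 11 macrophage markers 4 rose and 0 fell, with a mean of 0.0036 to 0.98 in aged and -0.37 to 0.0049 in adult arrays. Of 10 fibroblast markers 6 rose and 0 fell, with a mean of 0.05 to 0.50 in aged and -0.43 to -0.02 in adult arrays. Of 11 lymphocyte markers 2 rose, and the mean was 0.52 in aged replicate 3 and 0.37 in aged replicate 6, 0.04 to 0.10 in the other aged arrays and -0.25 to 0.02 in adult arrays. The 2 that rose were Gzma and Ptprc, of which Ptprc is not particular to lymphocytes, and 5 of the 11 had lower means in aged hearts. In aged replicate 3 the mean came mainly from Gzma (3.38), Nkg7 (1.87) and Cd8a (0.85), whereas Cd3g (-0.46) and Cd3e (-0.22) were below 0 there. In aged replicate 6 it came mainly from Gzma, Nkg7 (1.78), Cd8a (0.75) and Ptprc (0.74). Of 7 endothelial markers 2 rose and 0 fell, with a mean of -0.02 to 0.28 in aged and -0.12 to 0.05 in adult arrays. Of the 5 atrial markers Nppa and Myl7 rose, by 2.69 and 1.45, and the list mean was 0.13 to 0.68 in aged and -0.87 to -0.23 in adult arrays. Of 6 adipocyte markers 1 fell, and adult replicate 2 had a mean of 0.89 against at most 0.08 on any other array. Of the 7 genes listed for smooth muscle, Des alone fell (-0.34, adjusted p = 0.0412 by limma) and the other 6 did not pass. In heart tissue Des is not particular to smooth muscle. The list mean was -0.14 to 0.09 in aged and -0.16 to 0.18 in adult arrays. Of 3 erythroid markers 0 passed, with a mean of -0.49 to 1.21 in aged and -0.33 to 0.36 in adult arrays. The part of these cell types in the subunit differences was not tested. In bulk tissue, fewer cells of a type and less RNA per cell cannot be told apart.

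All 4 genes of complex II had lower means in aged hearts, and 1 of them fell. The median of the 4 differences was -0.15 (-9.89%), and it was -0.09 without aged replicate 3. Sdha encodes the flavoprotein that oxidises succinate. Its values were -0.13, -0.38, -0.01, -0.33 and -0.21 in aged hearts, against 0.03, 0.02, 0.04, 0.26 and 0.01 in adult hearts. The ages did not overlap, but aged replicate 4 and adult replicate 6 lay close to each other, and adult replicate 4 stood above the other adult arrays. The difference was -0.28 ± 0.08 SE (-17.92%, adjusted p = 0.0306 by limma). Its call was lost without any 1 of 6 arrays (adult replicates 2, 3 and 4 and aged replicates 3, 5 and 6), with an adjusted p of at most 0.0817. Sdhb, the iron-sulfur subunit that takes electrons from Sdha, had a value of -0.42 in aged replicate 3. Its other aged values lay between -0.02 and 0.0072, and its adult values were between -0.02 and 0.11 (difference -0.15 ± 0.08 SE, adjusted p = 0.244). Without aged replicate 3 the difference of Sdhb was -0.07. Sdhc and Sdhd encode the membrane anchors that hold the heme and help to bind ubiquinone. Sdhc ranged from -0.27 to -0.01 in aged and from 0.01 to 0.10 in adult hearts, with no overlap (-0.15 ± 0.05 SE, adjusted p = 0.0957). Sdhd, the highest difference in the complex, had 0.03, -0.30, -0.0028, -0.11 and -0.05 in aged hearts, against 0.10, -0.05, 0.06, 0.08 and 0.06 in adult hearts (-0.14 ± 0.06 SE, adjusted p = 0.188). Its 2 probe sets gave -0.18 and -0.10. In each of the 4 genes aged replicate 3 had the lowest value of the 10 arrays.

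In complex III, 3 of 8 genes fell and 5 did not pass. The 3 that fell encode cytochrome c1 and the core proteins. The median of the 8 differences was -0.17 (-10.93%). Cyc1 encodes cytochrome c1, the heme protein that hands electrons to cytochrome c, and it had the lowest difference of all 42 subunit genes. Its values were -0.08, -0.49, -0.17, -0.21 and -0.12 in aged hearts, against 0.08, 0.29, 0.25, 0.21 and 0.23 in adult hearts. The ages did not overlap, and aged replicate 3 was the lowest. Cyc1 was lower by -0.42 ± 0.07 SE, or -25.46% (adjusted p = 0.00496 by limma), and it ranked 260 by p among all genes. The other redox subunit is the Rieske iron-sulfur protein, encoded by Uqcrfs1. It had the value -0.44 in aged replicate 3, -0.15 to 0.02 in the other aged hearts and -0.12 to 0.10 in adult hearts, and did not pass (-0.16 ± 0.08 SE, adjusted p = 0.230).

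Uqcrc1 and Uqcrc2 encode the core proteins, large matrix-facing subunits related to mitochondrial processing peptidases. Uqcrc1 had -0.0036, -0.34, -0.12, -0.21 and -0.20 in aged hearts, against 0.0036, 0.13, 0.12, 0.06 and 0.12 in adult hearts. The ages met at aged replicate 2 and adult replicate 1 without overlapping. The difference was -0.26 ± 0.06 SE (-16.57%, adjusted p = 0.0171 by limma). Uqcrc2 had -0.10, -0.27, -0.02, -0.14 and -0.06 in aged hearts, against 0.15, 0.05, 0.06, 0.09 and 0.06 in adult hearts. It was lower by -0.20 ± 0.05 SE (-12.91%, adjusted p = 0.0272 by limma), and its 2 probe sets gave -0.20 each. On the probe set of the brightest class the ages overlapped, from -0.41 to 0.02 in aged and from -0.02 to 0.18 in adult hearts. On the other, dimmer probe set they did not overlap. With the brightest class alone Uqcrc2 did not pass (adjusted p = 0.082 by limma). Uqcrc2 also did not pass once adult replicate 1, 3 or 4, or aged replicate 5, was left out.

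The small subunits of complex III, which surround the core, did not pass. Of the 4 measured, Uqcrh, Uqcrq and Uqcr10 had higher means in aged hearts. Uqcrh, the acidic hinge protein that helps cytochrome c bind to cytochrome c1, had the highest difference in the complex. Its values were 0.12, -0.01, 0.03, 0.02 and 0.02 in aged hearts, against -0.02, -0.11, -0.06, -0.05 and 0.01 in adult hearts. Of the aged arrays 4 lay above all adult arrays, and the difference of 0.09 ± 0.04 SE did not pass (95% interval -0.01 to 0.18, adjusted p = 0.243 by limma). Uqcrq gave 0.08 ± 0.06 SE (adjusted p = 0.413) and Uqcr10 gave 0.04 ± 0.06 SE (adjusted p = 0.722). Uqcr11 had the opposite sign, -0.17 ± 0.07 SE (adjusted p = 0.143), with 4 aged arrays below all adult arrays and aged replicate 2 above them at 0.12. Without aged replicate 2 its difference was -0.24 and passed (adjusted p = 0.0126).

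**Figure D2:**
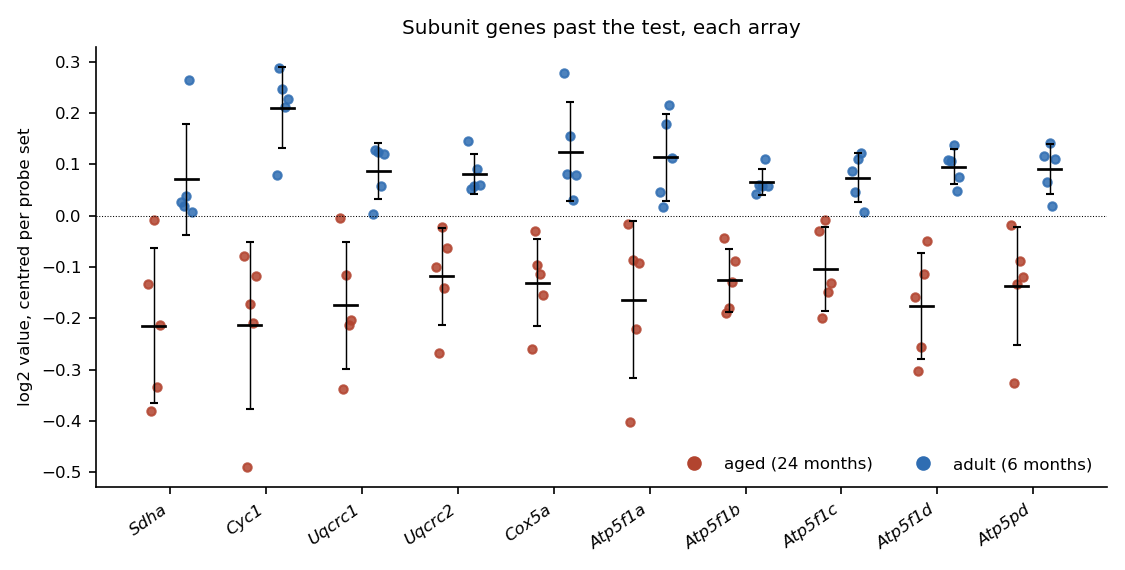
The vertical axis gives the centred log2 value of the 10 subunit genes that fell, with 1 point per array, aged left of adult, a line for the mean and a bar for the SD (n = 5 per age). In each gene, chosen by the test on these same arrays, the aged points lie below all adult points, and the gap is widest in Cyc1.

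In complex IV, 1 of 15 genes fell, and the median of the 15 differences was -0.03 (-1.80%). That median was -0.0048 without adult replicate 1, -0.0068 without aged replicate 4 and -0.04 without adult replicate 4. All its nuclear subunits surround a catalytic core that the mitochondrial genome encodes. Cox5a, a matrix-side subunit, had -0.26, -0.03, -0.10, -0.11 and -0.15 in aged hearts, against 0.28, 0.08, 0.16, 0.03 and 0.08 in adult hearts. Here aged replicate 2 was lowest and aged replicate 3 was the highest of the aged arrays. The difference was -0.26 ± 0.06 SE (-16.20%, adjusted p = 0.0165 by limma). Its probe set was not in the brightest class. Among the other subunits with 1 form in heart, Cox5b, which binds zinc, had a mean lower by -0.09 ± 0.05 SE, with 4 of 5 aged arrays below all adult arrays (adjusted p = 0.240). Cox7b gave -0.13 ± 0.08 SE (adjusted p = 0.372). Cox6b1, Cox6c, Cox7c and Ndufa4, a subunit first assigned to complex I, lay between -0.01 and 0.02, and their 95% intervals fell within -0.12 and 0.15. Cox7a2l, a factor that joins complexes III and IV into supercomplexes, gave 0.08 ± 0.05 SE (adjusted p = 0.340).

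Heart and skeletal muscle use their own forms of some complex IV subunits, encoded by Cox6a2, Cox7a1 and Cox8b, beside the widely expressed forms Cox6a1, Cox7a2 and Cox8a. Cox4i2 is an oxygen-responsive form best known from lung, beside the widely expressed Cox4i1. None of the 7 measured genes of these pairs passed the test. Cox8b had 0.16, -0.16, -0.22, -0.13 and -0.31 in aged hearts, against 0.13, 0.09, 0.01, -0.01 and 0.02 in adult hearts. Of the aged arrays 4 were below all adult arrays and aged replicate 2 was above them, with a difference of -0.18 ± 0.08 SE (adjusted p = 0.157 by limma). Without aged replicate 2 the difference of Cox8b was -0.25 and passed (adjusted p = 0.0112). Cox8a had -0.02, 0.06, -0.16, 0.0026 and 0.03 in aged hearts, against 0.09, -0.02, 0.03, -0.06 and -0.0026 in adult hearts, and the ages overlapped widely (-0.03 ± 0.05 SE).

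Cox6a2 had 0.01, -0.09, -0.12, -0.01 and -0.0048 in aged hearts, against 0.0048, -0.02, 0.04, 0.02 and 0.02 in adult hearts (-0.06 ± 0.04 SE, adjusted p = 0.456 by limma). Cox6a1 had -0.02, -0.03, -0.03, 0.15 and 0.08 in aged hearts, against 0.06, -0.01, 0.01, -0.03 and 0.09 in adult hearts (0.01 ± 0.05 SE, adjusted p = 0.950 by limma). In both genes the ages overlapped. Cox4i2 had -0.29, 0.14, -0.07, -0.03 and -0.02 in aged hearts, against -0.02, 0.26, 0.02, 0.04 and 0.06 in adult hearts (-0.12 ± 0.08 SE, adjusted p = 0.346 by limma). Of its aged arrays 4 lay below all adult arrays, and aged replicate 3 lay above all but 1 of them. Cox4i1 had -0.12, -0.16, 0.02, 0.02 and -0.08 in aged hearts, against 0.04, -0.16, 0.03, 0.08 and -0.02 in adult hearts (-0.06 ± 0.06 SE, adjusted p = 0.551 by limma). Cox7a1 varied most. It had 0.57, -0.50, 0.16, 0.07 and 0.12 in aged hearts, against 0.04, -0.11, -0.07, -0.72 and -0.04 in adult hearts. Each age held 1 very low array, and the difference of 0.26 ± 0.18 SE, the highest of all 42 genes, did not pass (adjusted p = 0.398 by limma).

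The log2 ratio of the tissue form to the widely expressed form was compared between the ages within each pair. Such a ratio cancels a shift common to an array. The 7 pairs planned were isoform pairs of complex IV and pairs among the genes of the proton-carrying c subunit of ATP synthase. Of them 3 could be formed, all of complex IV. In the two-sided exact permutation test over the arrays, adjusted over the 3, 0 passed. None of the 3 reached an unadjusted p under 0.05, and the smallest p that 5 arrays against 5 can give is 0.00794. Cox8b over Cox8a averaged -0.11 ± 0.20 in aged hearts and 0.04 ± 0.05 in adult hearts (SD, n = 5 each). The difference was -0.15, with a 95% interval from inverting the exact test of -0.35 to 0.06 (exact permutation p = 0.127, adjusted 0.202). Cox6a2 over Cox6a1 averaged -0.07 ± 0.07 in aged hearts and -0.01 ± 0.05 in adult hearts (SD, n = 5 each). The difference was -0.06 (interval -0.15 to 0.03, exact permutation p = 0.135, adjusted 0.202). Cox4i2 over Cox4i1 gave 0.01 ± 0.19 in aged hearts and 0.08 ± 0.20 in adult hearts, a difference of -0.06 (interval -0.35 to 0.22, exact permutation p = 0.548, adjusted 0.548). Without aged replicate 2, 2 pairs passed: Cox8b over Cox8a at -0.23 (adjusted exact permutation p = 0.0238) and Cox6a2 over Cox6a1 at -0.09 (adjusted exact permutation p = 0.0476).

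**Figure D3:**
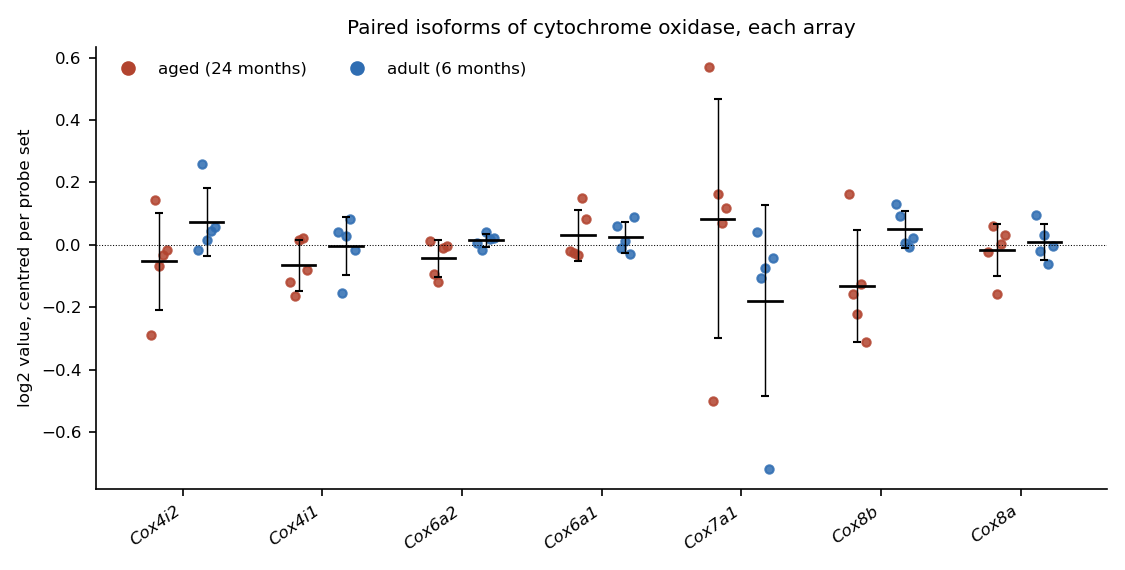
The vertical axis gives the centred log2 value of the 7 measured genes that belong to isoform pairs of cytochrome oxidase, with 1 point per array, aged left of adult, a line for the mean and a bar for the SD (n = 5 per age). The ages overlap in each gene, and Cox7a1 spreads from -0.72 to 0.57.

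In ATP synthase, 5 of 15 genes fell, 4 of them in the F1 part, which lies in the matrix and makes ATP. Over all 15 genes the median difference was -0.07 (-4.96%), and it was -0.11 without aged replicate 2. The median difference was -0.19 (-12.40%) over the 5 F1 genes and -0.07 (-4.45%) over the other 10, of which 1 fell. Atp5f1a and Atp5f1b encode the alpha and beta subunits of the catalytic head. Atp5f1a had -0.02, -0.40, -0.09, -0.22 and -0.09 in aged hearts, against 0.05, 0.02, 0.18, 0.22 and 0.11 in adult hearts. The ages did not overlap (-0.28 ± 0.07 SE, -17.47%, adjusted p = 0.0281 by limma). It did not pass once adult replicate 3, 4 or 6, or aged replicate 5, was left out. Atp5f1b had -0.04, -0.19, -0.18, -0.13 and -0.09 in aged hearts, against 0.04, 0.06, 0.06, 0.11 and 0.06 in adult hearts. The ages did not overlap, and it was lower by -0.19 ± 0.04 SE (-12.40%, adjusted p = 0.0159 by limma).

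The central stalk, the rotor that carries the turn of the c-ring to the head, consists of the products of Atp5f1c, Atp5f1d and Atp5f1e. Atp5f1d had -0.16, -0.30, -0.26, -0.11 and -0.05 in aged hearts, against 0.11, 0.11, 0.14, 0.05 and 0.07 in adult hearts. Every aged array was below every adult array, with a difference of -0.27 ± 0.05 SE (-17.14%, adjusted p = 0.00788 by limma). Atp5f1c had -0.03, -0.20, -0.01, -0.15 and -0.13 in aged hearts, against 0.09, 0.05, 0.11, 0.12 and 0.01 in adult hearts (-0.18 ± 0.05 SE, -11.62%, adjusted p = 0.0372 by limma). Its call was lost without aged replicate 3, 5 or 6 or adult replicate 1, 2, 3 or 4. Atp5f1e, the smallest part of the stalk, did not pass, at 0.01 ± 0.07 SE (95% interval -0.14 to 0.15).

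The peripheral stalk keeps the head from turning with the rotor. All 4 of its genes had lower means and Atp5pd fell. Atp5pd had -0.02, -0.33, -0.13, -0.09 and -0.12 in aged hearts, against 0.12, 0.07, 0.14, 0.02 and 0.11 in adult hearts (-0.23 ± 0.06 SE, -14.61%, adjusted p = 0.0248 by limma). The ages did not overlap, and its call was lost without adult replicate 3 or 6. Atp5pf, which encodes coupling factor 6, gave -0.16 ± 0.05 SE with an adjusted p of 0.0531, just short of the threshold, and passed without aged replicate 2 (adjusted p = 0.0205). Atp5po, which encodes the subunit that confers oligomycin sensitivity, gave -0.07 ± 0.05 SE, and its 2 probe sets gave -0.09 and -0.06. Atp5pb gave -0.07 ± 0.07 SE, with -0.35 in aged replicate 3 and a lowest adult value of -0.14 in adult replicate 2. Atp5mc3 encodes the proton-carrying c subunit, as do Atp5mc1 and Atp5mc2. It gave -0.06 ± 0.04 SE (adjusted p = 0.411), with 4 of 5 aged arrays below all adult arrays.

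The accessory subunits of the membrane part, encoded by Atp5me, Atp5mf, Atp5mg and Atp5mk, take part in joining the enzyme into dimers. They did not pass, with differences between -0.11 and 0.01. Atp5mg was the most variable, from -0.13 to 0.35 in aged and from -0.04 to 0.33 in adult hearts. The 2 probe sets of Atp5me gave -0.14 and 0.01. Atp5if1, which encodes the inhibitor that blocks ATP hydrolysis when the gradient collapses, had the highest difference in the complex. Its values were 0.08, 0.19, -0.12, 0.09 and 0.0016 in aged hearts, against 0.10, -0.11, 0.03, -0.01 and -0.06 in adult hearts. The ages overlapped (0.06 ± 0.06 SE, adjusted p = 0.604 by limma), and its 3 probe sets gave 0.03 to 0.09.

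**Figure D4:**
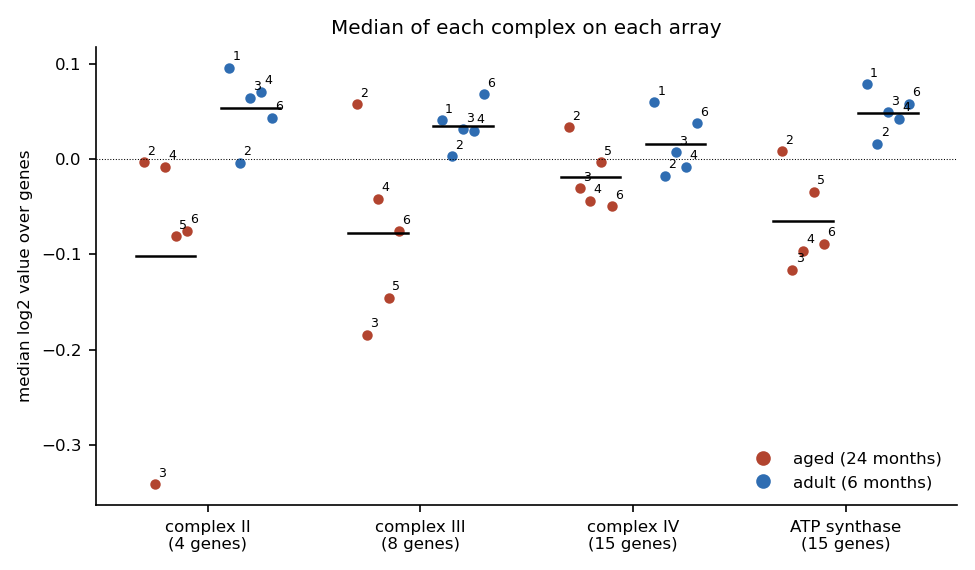
The vertical axis gives the median log2 value over the measured genes of each complex on each array, aged left of adult, with the replicate number beside each point and a line for the mean of the 5 arrays. Aged replicate 2 lies among the adult arrays in complexes III and IV, and aged replicate 3 is lowest in complexes II and III and in ATP synthase.

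By array, the medians of the complexes differed in how far the ages separated. The median over the ATP synthase genes was 0.01, -0.12, -0.10, -0.03 and -0.09 in aged hearts, against 0.08, 0.02, 0.05, 0.04 and 0.06 in adult hearts, with no overlap. That over the complex II genes was -0.0029, -0.34, -0.01, -0.08 and -0.07 in aged hearts, against 0.10, -0.0033, 0.06, 0.07 and 0.04 in adult hearts. There aged replicate 2 lay just above adult replicate 2, and the other aged arrays lay below all adult arrays. The complex III median was 0.06, -0.18, -0.04, -0.15 and -0.08 in aged hearts, against 0.04, 0.0033, 0.03, 0.03 and 0.07 in adult hearts, and aged replicate 2 lay among the adult arrays. In complex IV the ages overlapped, from -0.05 to 0.03 in aged and from -0.02 to 0.06 in adult hearts. The difference between complexes was not tested.

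Subunits that carry a redox centre, an anchor of complex II, a nucleotide site or the proton-carrying ring were set beside the accessory subunits. All 9 measured catalytic genes had lower means in aged hearts and 4 fell, with a median difference of -0.16 (-10.72%). Of the 33 accessory genes, 22 had lower means and 6 fell, with a median of -0.06 (-4.20%). Complex IV has accessory genes alone in the nucleus, and without it 12 of 18 accessory genes had lower means and 5 fell, with a median of -0.07 (-4.81%). Of the accessory genes that fell, Uqcrc1, Uqcrc2, Atp5f1c and Atp5f1d belong to the large core or the rotor, and Cox5a and Atp5pd to neither. Atp5f1e, also of the rotor, did not pass (0.01 ± 0.07 SE). The difference between the classes was not tested, since members are not replicates of a condition.

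Aged replicates 2 and 3 often held the extreme values among the aged arrays. Aged replicate 3 was the lowest of the 10 arrays in 18 of the 42 genes and in 9 of the 10 that fell, the exception being Cox5a. Aged replicate 2 was the highest of the 10 arrays in 16 of the 42 genes. It was the highest of the 5 aged arrays in 28 of the 42 genes and in 5 of the 10 that fell. How often aged replicates 2 and 3 were extreme over all genes was not counted. Whether these counts are particular to the subunit genes was therefore not tested. In the 10 genes that fell every aged array lay below every adult array, so the lowest array had to be an aged array. The small subunits of complex III and the membrane accessory subunits of ATP synthase, 8 genes set together after their values were seen, had their highest value in aged replicate 2 in 8 of 8 cases. Their median was 0.16 in that array, -0.07 to 0.02 in the other aged arrays and -0.03 to 0.06 in adult arrays. The 10 genes that fell were chosen by the difference between the ages on these same arrays. Over them the median was -0.06 in aged replicate 2, -0.31 in aged replicate 3, -0.15 to -0.11 in the other aged arrays and 0.06 to 0.13 in adult arrays.

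**Figure D5:**
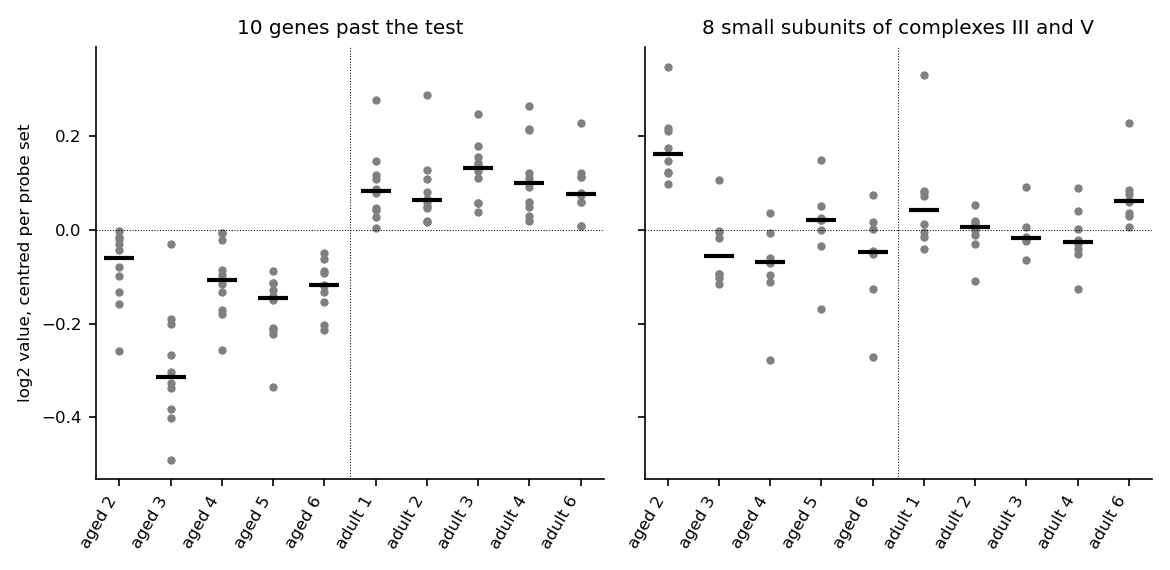
The vertical axis gives the centred log2 value on each of the 10 arrays (5 aged, then 5 adult), with 1 grey point per gene and a black line for the median over genes, for the 10 genes that fell (left) and 8 small subunits of complexes III and V (right). On the left the genes were chosen by the difference between the ages on these same arrays, and the medians of the aged arrays lie below the adult ones. On the right the median of aged replicate 2 stands above the other 9 arrays.

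Other genes of the pathway were counted beside the subunits. Of 34 measured assembly factors of complexes II to V, 4 fell and 0 rose, with a median difference of -0.08 (-5.37%), against the 5.09% of all genes that fell. They were Uqcc1 (-0.40 ± 0.07 SE, adjusted p = 0.00565 by limma) and Bcs1l (-0.40 ± 0.11 SE, adjusted p = 0.0320), which act in complex III, Sdhaf2 (-0.29 ± 0.06 SE, adjusted p = 0.0149), which helps to attach flavin to Sdha, and Cox10 (-0.32 ± 0.09 SE, adjusted p = 0.0291), which makes heme for complex IV. The mitochondrially encoded core subunit genes of complex IV that were measured, COX1 and COX2, gave 0.0035 ± 0.04 SE and 0.03 ± 0.04 SE (adjusted p = 0.968 and 0.696 by limma). Their mean ranged from -0.03 to 0.04 in aged and from -0.04 to 0.03 in adult hearts. The testis forms Cox6b2 and Cox7b2 gave 0.10 and 0.01 and did not pass.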

How the data were processed

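RNA of 10 rat hearts, 5 aged and 5 adult, was measured on 1-colour Affymetrix arrays. The authors' deposited table holds log2 values for 31042 probe sets, with each probe set at a median of 0 within a tolerance of 1e-06; the base is inferred, and of the software, background correction and normalization nothing is stated in the labels. It held 0 control probe sets, so signal over background is unknown and the number of arrays limits the precision. Probe sets with 1 symbol in the platform annotation (20826, against 436 with several and 9780 with none listed) were named through RefSeq identifiers (20758 matched, GRCr8) and averaged per gene; the 42 subunit genes had 48 probe sets. The test between ages was limma 3.58.1 (lmFit, eBayes, no covariate; R 4.3.3), fitted over all genes and tested on simulated data. Values were prepared and drawn with Python 3.11.15, numpy 2.4.6, pandas 2.3.3 and matplotlib 3.10.9. Ratios of isoforms were compared with exact two-sided permutation of the 252 arrangements. Named with values on every array were genes past the threshold, isoform pairs and the extremes of each complex. Members, lists and motifs were chosen with earlier results of these data known. The replicate numbers shared by both ages (2, 3, 4 and 6) were not taken to pair arrays: deviations of same-numbered arrays correlated at 0.035 to 0.145 over genes. Alternatives were other scalings, array weights, robust variance, other rules for probe sets, the numbers as a block and each array left out. Leaving out aged replicates 3 and 6 together was chosen after seeing the data.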

Additional observations from a re-analysis of the deposited data

Results flagged for a closer look

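In 9 of 100 groups of 5 arrays tested, 1 array stood apart from the other 4 by more than Dixon's 95% critical value, which chance gives in about 1 of 20 groups. Aged replicate 3 was low in Sdhb (-0.42, against -0.02 to 0.0072 in the other aged arrays) and in the median of complex II (-0.34, against -0.08 to -0.0029). Adult replicate 4 was high in Sdha (0.26, against 0.01 to 0.04 in the other adult arrays) and Atp5f1b (0.11, against 0.04 to 0.06), and low in Cox7a1 (-0.72, against -0.11 to 0.04). Adult replicate 2 was low in Sdhd (-0.0486, against 0.06 to 0.10) and Atp5pb (-0.14, against 0.0049 to 0.06). It was high in Cox4i2 (0.26, against -0.02 to 0.06) and in the log2 ratio of Cox4i2 to Cox4i1 (0.42, against -0.06 to 0.07).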

How the results depend on the processing

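The subunit genes that fell numbered 10 under median centring, quantile normalization and robust variance. They also numbered 10 with the median of probe sets and without cross-hybridising probe sets. Those 2 settings could not change the differences of the 10 genes, because only Atp5if1 had more than 2 probe sets or a cross-hybridising one. The count was 11 with array weights (Atp5pf added) and 8 of 40 with the brightest class alone (Uqcrc2 lost, Cox5a not in this class). With the replicate numbers as a block, 2 fell (Cyc1 and Atp5f1d), and without aged replicates 3 and 6 together 3 fell. Without those arrays the median log2 difference, complex II, was -0.0828, the median log2 difference, complex III, was -0.1082 and the median log2 difference, complex V, was -0.0391. Leaving out single arrays gave 5 (without adult replicate 3) to 13 (without aged replicate 2), and 0 to 2 isoform pairs. The cause of these changes was not tested. The median log2 difference, complex IV, was -0.0101 with the brightest class alone and -0.0133 with the block. No subunit gene rose under any of these settings. Cyc1 and Atp5f1d passed in all 19. The count of all genes lower in aged hearts was 724, and it was 431 of 2758 with the brightest class alone, 348 with the block, 356 without aged replicates 3 and 6, and 406 to 940 without single arrays. Of 796 values of single genes, 719 kept direction and call. In 39 values, all of the 10 genes that fell, the call was lost, and in 4 a call was gained. Genes without a call had none to lose. Among the 719 were those of the 2 probe-set settings that could change the difference of Atp5if1 alone. Another 34, in 11 genes that did not pass, changed sign. Array weights gave -0.0074 for Cox6b1 and -0.0040 for Atp5mk, and the replicate block gave -0.0133 for Cox6a1 and 0.0073 for Cox6c. Without aged replicates 3 and 6 together, Cox6c gave 0.0186, Cox7c 0.0133, Atp5pb 0.0222 and Atp5mf 0.0216. Without single arrays the differences ranged from -0.0025 to 0.0652 for Uqcr10, -0.0223 to 0.0237 for Cox6a1, -0.0454 to 0.0085 for Cox8a, -0.0258 to 0.0450 for Cox6b1, -0.0317 to 0.0066 for Cox6c, -0.0334 to 0.0118 for Cox7c and -0.0232 to 0.0281 for Ndufa4. They ranged from -0.0343 to 0.0449 for Atp5f1e, -0.1025 to 0.0003 for Atp5pb, -0.0254 to 0.0292 for Atp5mk and -0.1369 to 0.0219 for Cox4i2 over Cox4i1. Signal over background is unknown in these values.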
